A study of Drosophila melanogaster with 40 samples.

Results

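The digestive serine proteases of the fly gut were followed in RNA from heads. The 27 genes were chosen by name, as every feature whose symbol begins with Jon and a digit (16 Jonah genes) or ends in Try (11 trypsin genes), out of 17784 features in the count table (17558 genes and 226 transposable element families). The samples were 40 pools of heads from wild-type (WT) Drosophila melanogaster males in the Oregon Red background, all 10 days old, whose frozen heads and bodies were parted by sieving. Chronic pools came from flies kept for 10 days in instant medium with 10 µM 2-AAPA (7 pools), 100 µM mitoQ (6 pools) or 0.2% DMSO (7 pools). Acute pools came from flies that had the same medium for only 24 h, after cornmeal food, with 2-AAPA (6 pools), mitoQ (7 pools) or DMSO (7 pools). 2-AAPA inhibits thioredoxin reductase and glutathione reductase, mitoQ is an antioxidant directed to mitochondria, and DMSO was the vehicle control. A pool held 13 to 21 heads, and the labels do not say whether the pools of a group came from separate cultures, so the p-values below measure the spread between pools. The supplement names ethanol as the solvent of mitoQ, and no group had ethanol alone. The study left 1 unnamed chronic DMSO pool out of its analysis. Here chronic DMSO replicate 7 was set apart, and all tests were first made on the other 39 pools.

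Serine proteases cut proteins with a reactive serine in the active site. Trypsins cut after lysine or arginine, whereas the Jonah proteases resemble chymotrypsins and elastases. In adult flies both families are made as inactive precursors by enterocytes of the midgut and secreted into the gut lumen, where they break down dietary protein. The midgut lies in the thorax and abdomen, so a head holds little or no tissue in which these genes are highly expressed.

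Many members are neighbours in the genome. In the BDGP6 annotation all 11 trypsin genes lie within 20.7 kb of chromosome 2R (11336840 to 11357537). The Jonah genes fall into the Jon25B trio on 2L (4949941 to 4955144), the Jon65A quartet on 3L (6039155 to 6054443), the Jon66C pair on 3L (8391540 to 8393649), the Jon99C trio on 3R (29922216 to 29926189) and the Jon99F pair on 3R (30487016 to 30489895). Jon44E on 2R (8691448 to 8692844) and Jon74E on 3L (17548077 to 17549127) stand alone. Close copies such as gammaTry and deltaTry, both 810 bases long, or Jon99Cii and Jon99Ciii may share reads, and how reads with several locations were divided is not given in the sources used here, so the split between such copies is uncertain. Jon44E overlaps CG8586 and deltaTry overlaps CG13202, each on the opposite strand. The strand setting of the counting is not given either.

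Chronic DMSO replicate 7 held most of the protease reads of the series. It had 15733 reads on the 27 genes, which was 0.0588% of its reads (95% Wilson interval 0.0579% to 0.0597%) and 588 CPM (counts per 1000000 reads of the pool). The other 39 pools had 23 to 78 such reads each, with a median of 41, and 1604 in all. Thus 90.7% of the protease reads of all 40 pools lay in 1 pool, whose summed CPM was 185 times that of the next highest pool. Its depth was not unusual, at 26757471 reads against 24318573 to 30104079 in the other pools. Yet it had reads on 16259 features of the whole table, against 13911 to 14459 in the other pools. All intervals on counts here cover counting error only.

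**Figure D1:**
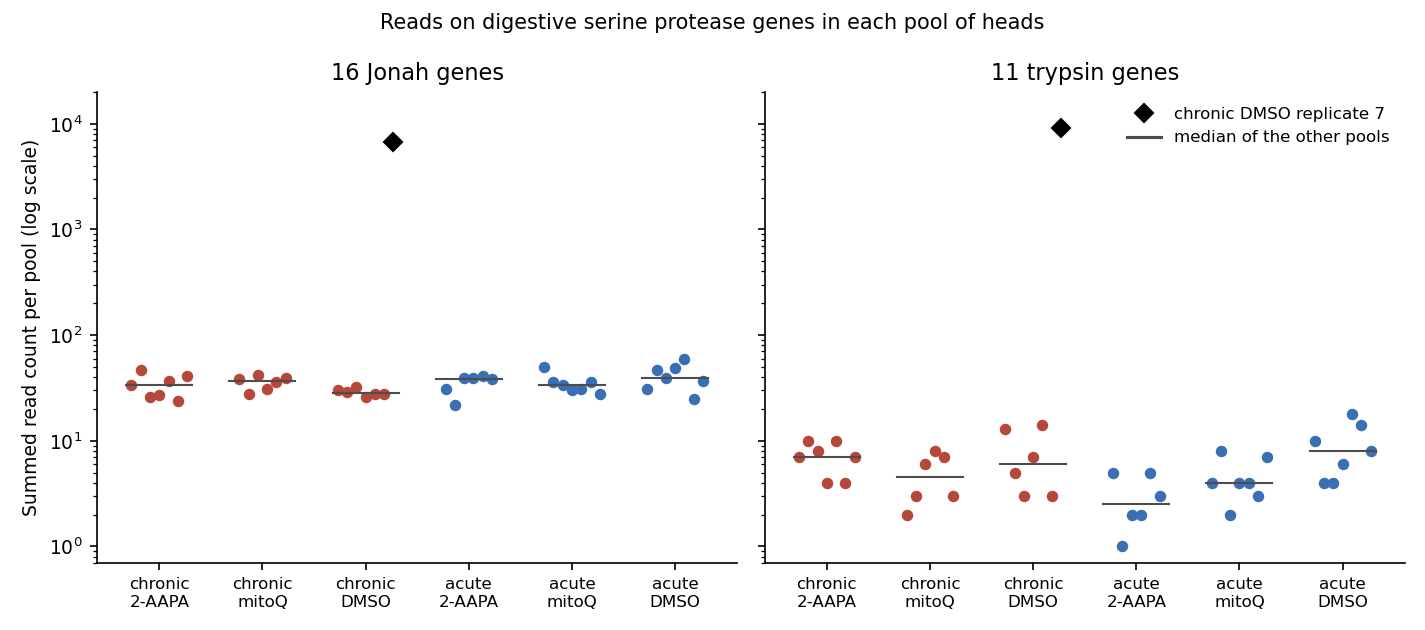
Summed read count per pool (log scale) over the 16 Jonah genes (left) and the 11 trypsin genes (right), by group, with a grey line at the median of each group without the black diamond. Chronic DMSO replicate 7 (diamond) had 6656 Jonah and 9077 trypsin reads, against 22 to 60 and 1 to 18 in the other 39 pools.

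The excess was larger for trypsins than for Jonah proteases. Trypsin reads numbered 9077 in chronic DMSO replicate 7, against 1 to 18 per pool in the others. Jonah reads numbered 6656 in chronic DMSO replicate 7, against 22 to 60 per pool in the others. In CPM these were 462 and 102 times the highest other pool. Trypsins made up 57.7% of the protease reads of that pool and 14.8% of those of the other 39 pools together. No other pool was without a trypsin read.

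Within the trypsin cluster, alphaTry had 3347 reads in chronic DMSO replicate 7 (exact Poisson 95% interval 3235 to 3462), against 0 to 10 in the other pools with a median of 1. The read counts of deltaTry, gammaTry and betaTry there were 2072, 1786 and 1398, and no other pool had more than 3 reads on any of these. In CPM, the level of gammaTry was 7858 times that of the other 39 pools summed (exact 95% interval 4130 to 17214), from 9 reads in 6 of them. For deltaTry, with 16 reads in the other pools, the ratio was 5128 (3150 to 8989). These 4 genes gave most of the trypsin reads. The remaining trypsins were far lower in the same pool. The read count was 151 for thetaTry, 86 for epsilonTry, 77 for kappaTry, 58 for lambdaTry, 45 for zetaTry, 40 for iotaTry and 17 for etaTry. Except for iotaTry, none of these had more than 2 reads in any other pool, so their ratios rest on 4 to 8 reads. Between thetaTry, at 1495 times, and etaTry, at 168 times, the exact intervals overlap (572 to 5557 and 54.9 to 687). iotaTry stood apart from its neighbours. Its ratio was 19.1 (12.7 to 28.2), and 32 of the other 39 pools had at least 1 read of it, with up to 10 in chronic 2-AAPA replicate 2.

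Among the Jonah genes, the Jon99C, Jon65A and Jon99F groups carried the excess. Jon99Cii had 1904 reads in chronic DMSO replicate 7, against 2 to 15 in the other pools with a median of 6. Jon99Ciii had 1451 reads, against 0 to 15 with a median of 6. Their neighbour Jon99Ci had 63 reads, against 0 to 7 with a median of 3, so genes within a 3.97 kb stretch differed in ratio from 282 (Jon99Cii) and 211 (Jon99Ciii) to 20.3 (Jon99Ci). In the Jon65A quartet the read count was 963 for Jon65Aiv, 573 for Jon65Aiii, 185 for Jon65Ai and 24 for Jon65Aii, and no other pool had more than 4 reads on any of them. Jon99Fii had 711 reads and Jon99Fi 430 in chronic DMSO replicate 7, and neither had more than 4 elsewhere. Jon74E had 184 reads there, against 3 to 28 elsewhere with a median of 9, a ratio of 18.7 (15.6 to 22.3). Jon44E had 72 reads, against 0 to 7 with a median of 2, a ratio of 31.0 (22.4 to 42.7). Jon25Biii had 66 reads and no more than 1 elsewhere.

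The excess did not extend evenly to every member. Jon66Ci had 20 reads in chronic DMSO replicate 7, against 0 to 3 in the other pools. Its neighbour Jon66Cii had 4 reads, fewer than the 9 reads of chronic mitoQ replicate 5. Jon25Bii and Jon25Bi had 4 and 2 reads there, with up to 2 and 1 elsewhere, so their intervals (4.86 to 89.0 and 1.02 to 49.6 times) are wide. In all, 26 of the 27 members were above every other pool in CPM, Jon66Cii being the exception. The highest other pool was exceeded at least 10 times by 20 members, 10 of each family, and at least 100 times by 11. The share of all features above every other pool was not computed, so these counts do not show an excess particular to the proteases.

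**Figure D2:**
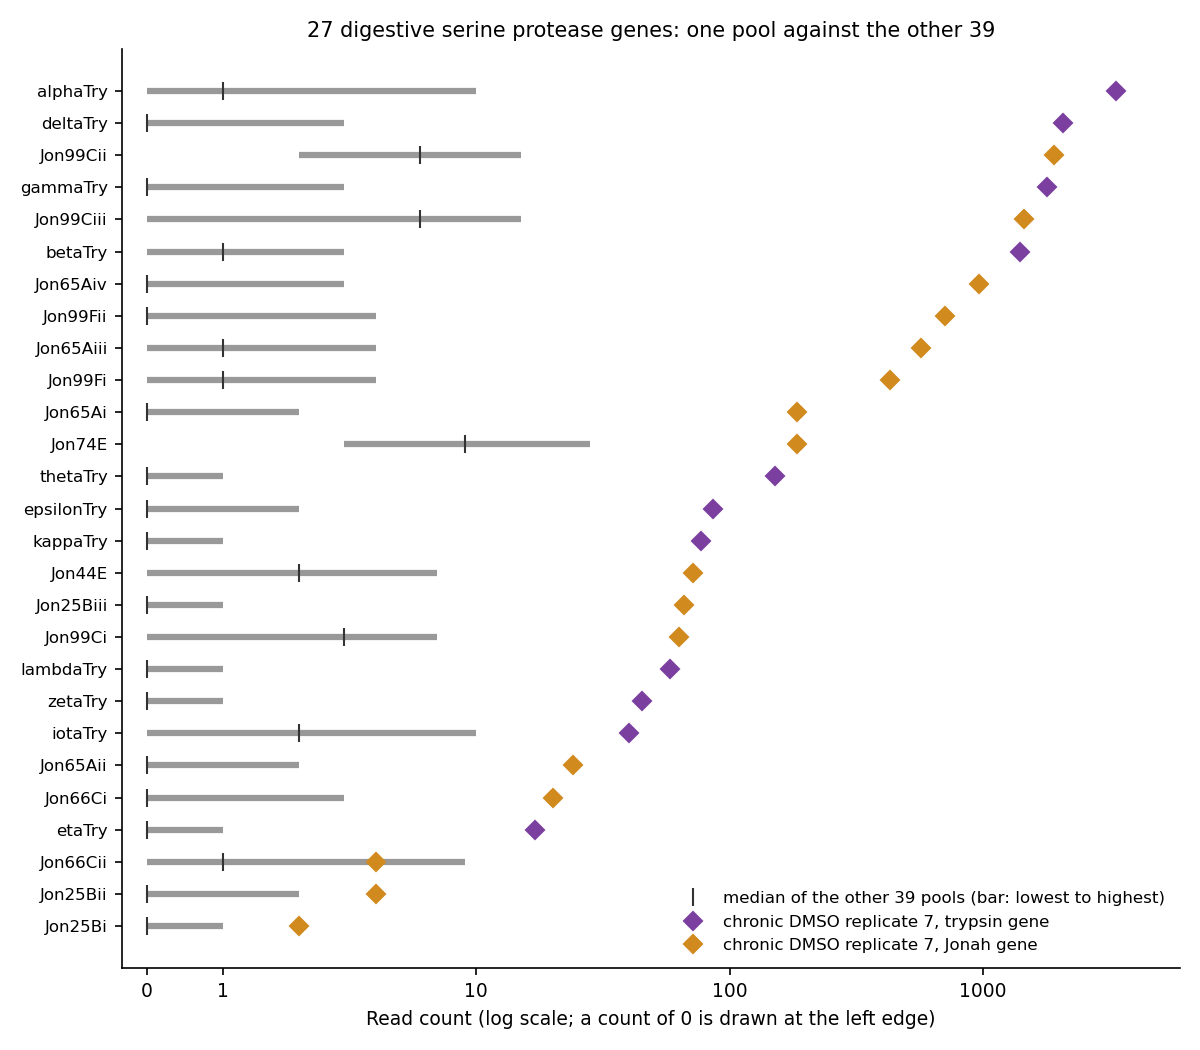
Read count (log scale) of each of the 27 members in chronic DMSO replicate 7 (diamonds, coloured by family) and in the other 39 pools (grey bar from lowest to highest, tick at the median). Diamonds lie to the right of the bar for all members but Jon66Cii, from 2 reads of Jon25Bi to 3347 of alphaTry.

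Levels can be compared between genes only per kilobase. In chronic DMSO replicate 7 the level per kilobase was highest for alphaTry, at 145 CPM per kb, followed by deltaTry (95.6), Jon99Cii (82.5) and gammaTry (82.4). In the other 39 pools the mean level per kilobase was 0.291 CPM per kb for Jon99Cii, 0.206 for Jon99Ciii, 0.128 for Jon99Ci, 0.0952 for iotaTry and 0.0775 for alphaTry. Jon74E was second to Jon99Cii, at 0.239 CPM per kb, by its deposited length of 1553 bases, and above it, at 0.411 CPM per kb, by its annotated exons of 903 bases. The order of the genes thus differed. Jon74E, Jon99Cii and Jon99Ciii together took 22.5% of the protease reads in chronic DMSO replicate 7 and 57.9% in the other 39 pools, where Jon74E alone took 24.3%. alphaTry, deltaTry and gammaTry took 21.3%, 13.2% and 11.4% in chronic DMSO replicate 7, and 4.30%, 0.998% and 0.561% in the others.

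**Figure D3:**
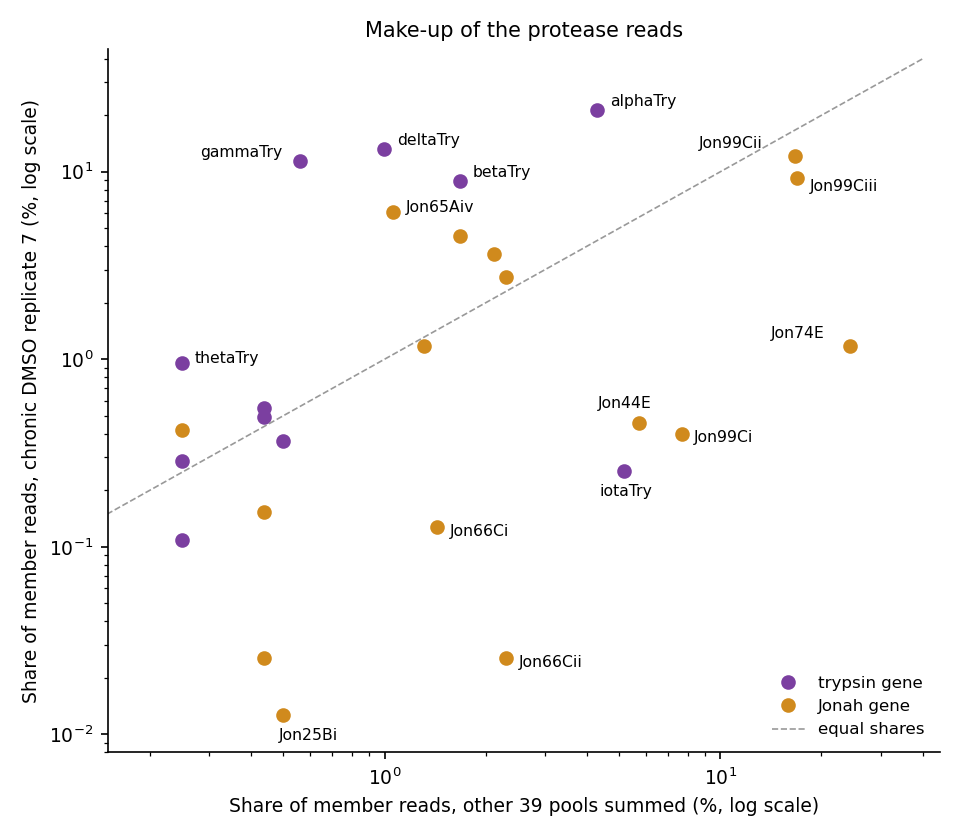
Share of all protease reads taken by each gene in chronic DMSO replicate 7 (vertical axis) against the other 39 pools summed (horizontal axis), both in percent on log scales, with a dashed line of equal shares. The 3 trypsins with the most reads lie above the line (alphaTry 21.3% against 4.30%), and Jon74E lies below it (1.17% against 24.3%).

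Markers of some other body tissues were also high in the same pool. These lists were chosen with earlier results of these data known. All 20 testis markers were above every other pool in it, with a summed level of 4156 CPM against 4.44 to 7.89 CPM elsewhere. So were all 16 measured markers of the male accessory gland and ejaculatory tract, at 1448 CPM against 0.103 to 1.53 CPM. For the Malpighian tubule (renal organ) 4 of 5 markers were above the other pools, and the summed level was 132 CPM against 59.7 to 82.8 CPM. For flight muscle, 2 of 4 were, at 42.5 CPM against 7.28 to 38.7 CPM. None of the 9 head markers was, and their sum of 38927 CPM lay within the range elsewhere, 36044 to 56670 CPM. Of the 8 measured genes of the gut epithelium list, 3 were above the other pools and the summed level, 858 CPM, lay within 494 to 1665 CPM. That sum comes mostly from pros, a transcription factor also present in neurons, at 790 CPM in chronic DMSO replicate 7. A pair of genes of the list was picked after their values were seen. mex1, an enterocyte membrane protein, had 82 reads there against at most 4 elsewhere, and GATAe, a gut transcription factor, had 36 against at most 5. Vha100-4, also above the other pools, had 11 reads against at most 8. The rest of the list lay within the range elsewhere. The reads were 71 for lab (36 to 103 elsewhere), 14 for nub (3 to 33), 904 for yin (627 to 1239) and 719 for Myo31DF (221 to 772). The share of all features above every other pool was not computed, so these counts do not show an excess particular to any of these tissues. Chronic DMSO replicate 7 also had the lowest median correlation with the other pools (0.912). The part of these tissues in the protease reads was not tested, and in bulk RNA more cells of a type cannot be told apart from more RNA per cell.

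**Figure D4:**
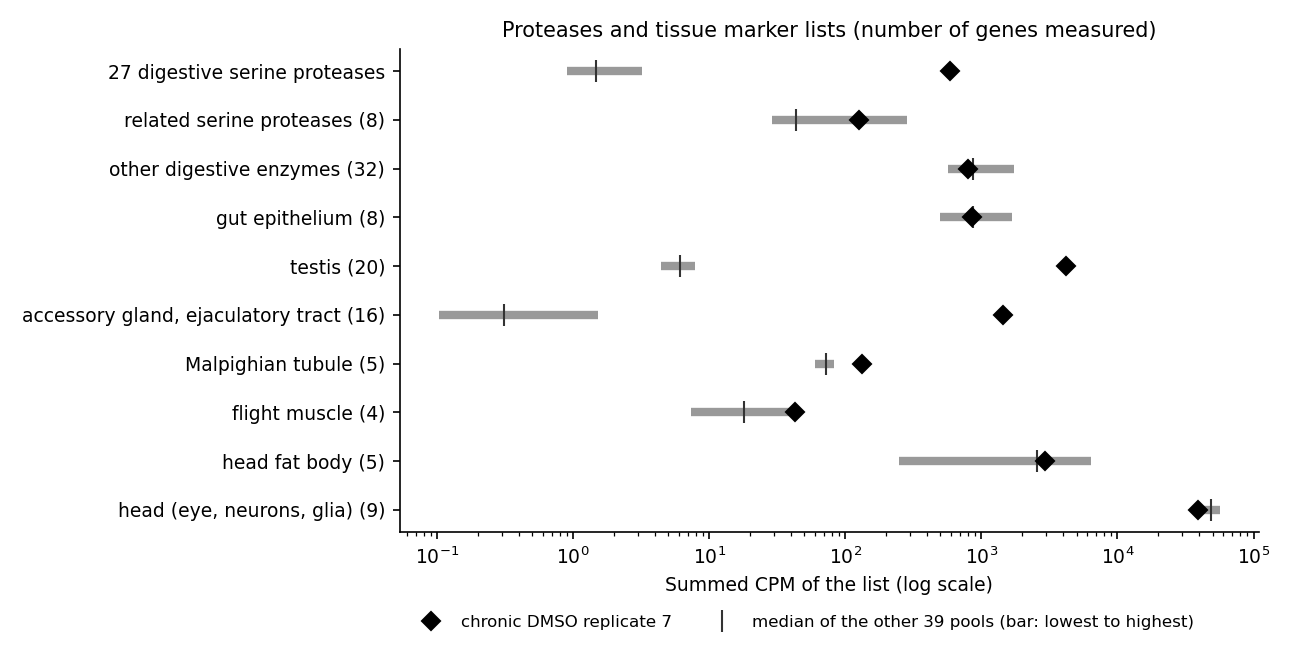
Summed CPM (log scale) of the 27 proteases and of each comparison list in chronic DMSO replicate 7 (diamond) and in the other 39 pools (bar from lowest to highest, tick at the median), with the number of genes measured in brackets. The proteases, at 588 CPM against 0.90 to 3.18 CPM, lie outside the range with the testis, accessory gland, Malpighian tubule and flight muscle lists, whereas the head, head fat body, gut epithelium, related protease and other digestive enzyme lists lie inside it. The Malpighian tubule and flight muscle lists lie only 1.60 and 1.10 times above the highest other pool. The sums of the gut epithelium and other digestive enzyme lists come mostly from genes with many reads in every pool.

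Protease-related genes outside the name rule were mixed. Of 8 related serine proteases, 3 were above every other pool in chronic DMSO replicate 7. As for the members, the share of all features above every other pool was not computed. The counts in this paragraph thus do not show an excess particular to these lists. The largest excess was that of yip7, another serine protease gene, with 2343 reads in that pool and at most 4 elsewhere (picked after its values were seen). grass, a protease of the Toll immune cascade, had 839 reads in chronic DMSO replicate 7, against 623 to 1317 elsewhere, and Try29F had 118 against 93 to 189. Of 32 other digestive enzymes and related proteins (amylases, maltases, mannosidases, lysozymes, lipid-handling proteins), 17 were above every other pool, yet their summed level in chronic DMSO replicate 7, 798 CPM, lay within the range elsewhere (568.4 to 1733 CPM). That sum comes mostly from genes with many reads in every pool, such as LManII, a mannosidase, Mal-B2 and Mal-A5. Their levels in chronic DMSO replicate 7 were 310, 108 and 107 CPM. LManII had 8297 reads in chronic DMSO replicate 7, against 6198 to 17039 elsewhere. In CPM, 5 of the 32 were at least 10 times the highest other pool. These were named after their values were seen. They were LysD (590 reads against at most 15 elsewhere), LysE (434 against 9), LysB (398 against 15), Bace (209 against 8) and mag (126 against 5).

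The other 39 pools held traces only. Of 1053 counts (27 genes in 39 pools), 587 were 0 and 33 were 10 or more. The median count was 0 for 16 members, 16 never exceeded 3 reads, and 22 stayed under 10 in every pool. A pool had reads on 7 to 16 of the members. The summed level was 0.90 to 3.18 CPM with a median of 1.47 CPM. The 5 members with the highest mean CPM were all Jonah genes, Jon74E, Jon99Ciii, Jon99Cii, Jon99Ci and Jon44E.

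By group, the summed protease level averaged 1.52 ± 0.350 CPM in chronic 2-AAPA (SD, n = 7), 1.45 ± 0.149 CPM in chronic mitoQ (n = 6) and 1.36 ± 0.233 CPM in chronic DMSO (n = 6). It averaged 1.41 ± 0.283 CPM in acute 2-AAPA (n = 6), 1.5 ± 0.306 CPM in acute mitoQ (n = 7) and 1.83 ± 0.628 CPM in acute DMSO (n = 7). The ranges of all 6 groups overlapped. The highest value, 3.18 CPM from 78 reads, was that of acute DMSO replicate 5, which also had the most reads of Jon74E (28) and alphaTry (10) among the 39 pools. This pool had a low median correlation with the others (0.954) and 5878 reads of the protease homologue SPH93, which had 1 to 5878 reads across the 39 pools with a median of 7. After scaling by TMM (trimmed mean of M values), the median summed level was 1.44 CPM in chronic pools (n = 19) and 1.52 CPM in acute pools (n = 20), a log2 ratio of -0.08, less than the SD within groups of 0.34 on the log2 scale. No test was made on the sum.

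Jon74E had the most reads of any member outside chronic DMSO replicate 7. Its level was 0.117 to 0.963 CPM in chronic pools with a median of 0.268 CPM, and 0.139 to 1.14 CPM in acute pools with a median of 0.355 CPM. In reads this was 7 to 25 (median 9) in chronic 2-AAPA, 5 to 14 (10.5) in chronic mitoQ and 3 to 7 (5) in chronic DMSO. In the acute groups it was 4 to 16 (12) in 2-AAPA, 6 to 19 (9) in mitoQ and 4 to 28 (9) in DMSO. Chronic DMSO was thus the lowest group, and its range overlapped those of the other 5, but met that of chronic 2-AAPA only at 7 reads. The highest pools were acute DMSO replicate 5 and chronic 2-AAPA replicate 5.

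Jon99Ciii and Jon99Cii were the next in level. Jon99Ciii had 0 to 15 reads (median 6) in chronic 2-AAPA, 3 to 12 (6) in chronic mitoQ and 4 to 8 (6) in chronic DMSO. In the acute groups Jon99Ciii had 4 to 7 reads (6.5) in 2-AAPA, 2 to 12 (7) in mitoQ and 4 to 15 (11) in DMSO. Jon99Cii had 2 to 13 reads (7) in chronic 2-AAPA, 4 to 10 (7.5) in chronic mitoQ and 4 to 12 (6) in chronic DMSO. In the acute groups Jon99Cii had 3 to 6 reads (5) in 2-AAPA, 2 to 9 (7) in mitoQ and 3 to 15 (10) in DMSO. All these ranges overlap. The lowest group mean of Jon99Cii was that of acute 2-AAPA, at 0.173 ± 0.0393 CPM (SD, n = 6), and the highest that of acute DMSO, at 0.319 ± 0.148 CPM (SD, n = 7).

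The 2 remaining Jonah genes of the 5 were near the limit of detection. Jon99Ci had 0 to 6 reads (median 3) in chronic pools and 1 to 7 (3) in acute pools. Jon44E had 0 to 4 reads (2) in chronic pools and 0 to 7 (2.5) in acute pools, 34 against 58 in all. Of the trypsins, iotaTry had 42 reads over the chronic pools and 41 over the acute pools. alphaTry had 34 reads over the chronic pools and 35 over the acute pools, 10 of these in acute DMSO replicate 5.

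**Figure D5:**
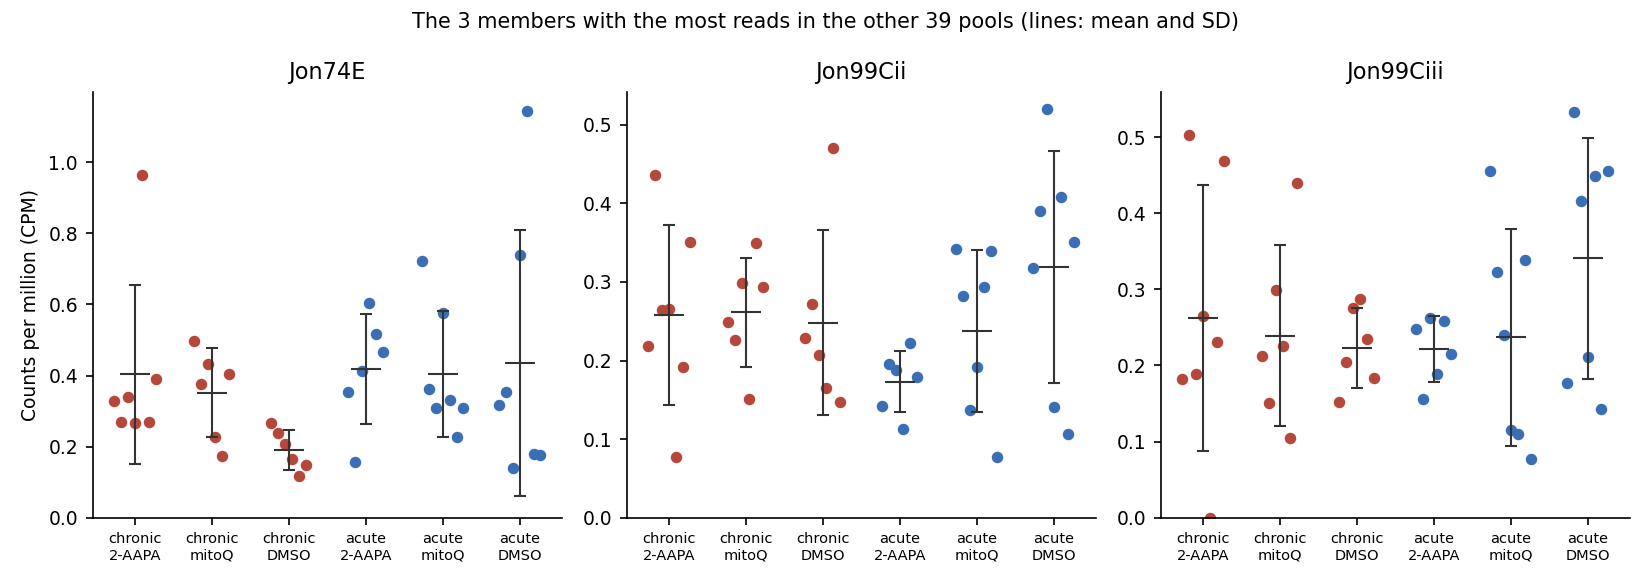
CPM of Jon74E, Jon99Cii and Jon99Ciii in each of the 39 pools by group (red chronic, blue acute; horizontal mark and bar, mean and SD). The groups overlap for all 3 genes, but for Jon74E chronic DMSO (highest 0.266 CPM) and chronic 2-AAPA (lowest 0.265 CPM) do so only at the edge. Chronic DMSO pools are lowest for Jon74E (0.190 ± 0.0569 CPM, SD, n = 6) and the highest point is acute DMSO replicate 5 at 1.14 CPM.

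Whether schedule or drug changed the proteases was tested with edgeR's quasi-likelihood F test on all features, and p-values were adjusted by Benjamini-Hochberg over all of them, with calls at 0.05. After the filter on low counts 11452 features were tested, and only 2 of the 27 members were among them, Jon74E and Jon99Ciii. Neither passed in any of the 10 comparisons. For chronic against acute feeding, adjusted for drug, 9.26% of all features passed, and 2539 features had an unadjusted p under 0.05. Jon74E had a log2 fold change of -0.46 (SE 0.25, 95% interval -0.97 to 0.06, edgeR adjusted p = 0.292) and Jon99Ciii one of -0.15 (SE 0.25, interval -0.65 to 0.36, edgeR adjusted p = 0.783). These intervals do not show that either gene was unchanged. The unadjusted p of Jon74E was 0.0798. Without the 2 pools with the most Jon74E reads, left out after seeing the data, its log2 fold change was -0.44 (unadjusted p = 0.0294, edgeR adjusted p = 0.162). DESeq2 and limma also called no member here.

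Within single drugs, the lowest p for a member was that of Jon74E in chronic DMSO against acute DMSO. The log2 fold change was -1.24 (SE 0.45, interval -2.15 to -0.32, unadjusted p = 0.00941, edgeR adjusted p = 0.209), and 1.2% of features passed in that comparison. Without the 2 pools with the most Jon74E reads it was -0.72 (unadjusted p = 0.0571, edgeR adjusted p = 0.547), a choice made after seeing the data. Acute DMSO replicate 5 was the only one of these in this comparison. In chronic 2-AAPA against acute 2-AAPA the log2 fold change of Jon74E was -0.03 (SE 0.41, edgeR adjusted p = 0.983), with 4.92% of features passing. In chronic mitoQ against acute mitoQ it was -0.22 (SE 0.42, edgeR adjusted p = 0.972), with 0.148% passing. The difference between these 3 values was itself tested as the interaction of schedule and drug, and did not pass for Jon74E (unadjusted p = 0.127, edgeR adjusted p = 1). Jon99Ciii had log2 fold changes of -0.65, 0.26 and -0.02 in DMSO, 2-AAPA and mitoQ, with edgeR adjusted p of 0.639, 0.823 and 0.998.

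Against DMSO at the same schedule, no drug passed the test on either gene. Jon74E was at a log2 fold change of 1.12 in chronic 2-AAPA against chronic DMSO (SE 0.45, interval 0.20 to 2.04, unadjusted p = 0.0185, edgeR adjusted p = 0.76) and of 0.84 in chronic mitoQ against chronic DMSO (SE 0.47, interval -0.11 to 1.80, edgeR adjusted p = 1). Without the 2 pools with the most Jon74E reads, of which chronic 2-AAPA replicate 5 lies in the first comparison, these values were 0.72 (unadjusted p = 0.0597, edgeR adjusted p = 0.483) and 0.84 (unadjusted p = 0.026, edgeR adjusted p = 0.867). For mitoQ the unadjusted p was 0.0826 with these pools. Both comparisons use the same 6 chronic DMSO pools, which are also those in the comparison of schedules. In acute 2-AAPA against acute DMSO it was -0.09 (SE 0.41, edgeR adjusted p = 0.975), and in acute mitoQ against acute DMSO it was -0.18 (SE 0.40, edgeR adjusted p = 0.999). Without the same 2 pools, of which acute DMSO replicate 5 lies in both acute comparisons, the sign turned, to 0.44 for 2-AAPA and 0.34 for mitoQ (edgeR adjusted p = 1 for each). The percent of features that passed was 0.0262 in the acute 2-AAPA comparison and 0 in each of the other 3, in the test among drugs and in the interaction. In these 5 tests with no call, 586 features had an unadjusted p under 0.05 among drugs, 405 in the interaction, 219 and 336 for mitoQ in acute and chronic pools, and 621 for 2-AAPA in chronic pools. For the test among drugs, edgeR adjusted p was 0.817 for Jon74E and 0.868 for Jon99Ciii. In that test the unadjusted p of Jon74E was 0.39, and 0.0402 without the same 2 pools (edgeR adjusted p = 0.791).

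When the filter was dropped all 27 members could be fitted, and none passed in any comparison. For chronic against acute feeding the median log2 fold change of the members was -0.05, beside 0.00 for all features, and the values ran between -0.71 and 1.31. The 95% intervals reached a median of 1.04 to each side, so smaller differences were not detectable for most members at this depth. Only kappaTry had an unadjusted p under 0.05 (log2 fold change 1.31, edgeR adjusted p = 0.268), from 6 reads over the chronic pools and 1 over the acute pools. This is 3.7% of members, beside 17.4% of all features. Over the other 9 comparisons 1 to 3 members had an unadjusted p under 0.05. The 3 comparisons with 3 such members (11.1%) were chronic DMSO against acute DMSO, acute 2-AAPA against acute DMSO and chronic mitoQ against chronic DMSO, beside 8.89%, 5.65% and 3.84% of all features. Among them was Jon99Cii in acute 2-AAPA against acute DMSO, with a log2 fold change of -0.87 (interval -1.60 to -0.14, unadjusted p = 0.0209, edgeR adjusted p = 0.795).

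Placing chronic DMSO replicate 7 back in its group gave calls. Then 3 members passed the filter, and Jon99Cii did so through that pool. Jon99Cii and Jon99Ciii were called in chronic DMSO against acute DMSO, with log2 fold changes of 4.92 (SE 1.02, edgeR adjusted p = 0.00341) and 4.44 (SE 0.999, edgeR adjusted p = 0.00593), where 5.11% of features passed. They were also called in chronic 2-AAPA against chronic DMSO, at -5.25 (SE 1.04, edgeR adjusted p = 0.00725) and -4.83 (SE 1.03, edgeR adjusted p = 0.0104), where 2.13% passed. In chronic mitoQ against chronic DMSO they were at -5.28 (SE 1.11, edgeR adjusted p = 0.0134) and -5.03 (SE 1.11, edgeR adjusted p = 0.0163), where 1.82% passed. These 3 comparisons share chronic DMSO replicate 7, which had been set apart beforehand. The calls follow from that 1 pool and say nothing about schedule or drug. Without it none of the calls remained. Jon99Ciii then stood at -0.65, 0.29 and 0.07.

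Jon99Cii and Jon99Ciii varied together across the 39 pools. Over log2 CPM with 1 count added, Pearson's r was 0.639 (permutation p = 1e-05, the smallest that 100000 permutations can give, and 3e-05 after adjustment over 3 pairs) and Spearman's rho was 0.569 (permutation p = 0.00022, adjusted 0.00066). Without the 2 pools farthest from the median r was 0.504, and it was 0.632 in chronic pools and 0.708 in acute pools. Shared reads of these neighbouring copies could not be separated from shared levels. Neither followed Jon74E. The r with Jon74E was -0.185 for Jon99Cii (permutation p = 0.261, adjusted 0.392; rho -0.152, permutation p = 0.353, adjusted 0.529) and -0.116 for Jon99Ciii (permutation p = 0.482, adjusted 0.482; rho 0.03, permutation p = 0.873, adjusted 0.873).

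Some genes of the list of other digestive enzymes did differ between schedules. Of the 32 other digestive enzymes, 15 were tested in the 39 pools, 6 were lower and none higher in chronic than in acute pools, with a median log2 fold change of -0.14 beside 0.01 for all features tested, of which 9.26% were called and 5.86% were lower. tobi, an alpha-glucosidase-like gene controlled by brain insulin signalling, fell by 1.53 (SE 0.20, edgeR adjusted p = 1.5e-06). LManII fell by 0.49 (SE 0.09, edgeR adjusted p = 0.000143), and the maltases Mal-B2 and Mal-A5 fell by 0.24 and 0.14 (edgeR adjusted p = 0.00738 and 0.0471). The other 2, named after their values were seen, were the starch-cutting amylases Amy-p and Amy-d, which fell by 0.99 and 0.98 (SE 0.20 each, edgeR adjusted p = 0.000654 and 0.000807) and may share reads. None of these 6 genes was above every other pool in chronic DMSO replicate 7, unlike most of the proteases. There tobi had 40.2 CPM (20.9 to 421 CPM elsewhere) and Amy-d 39.4 CPM (24.9 to 206 CPM elsewhere). Of 8 related serine proteases 4 were tested and none passed. In the gut epithelium list 5 genes were tested, and 1 was higher and none lower. This was nub, named after its value was seen, with a log2 fold change of 0.78 (SE 0.25, edgeR adjusted p = 0.0381). Markers of the head fat body moved in the same comparison. Of the 4 tested, 2 were lower and none higher, with a median of -0.54. These were the storage protein gene Lsp2, which fell by 1.83 (edgeR adjusted p = 1.36e-05), and fit, a secreted feeding signal, which fell by 1.08 (edgeR adjusted p = 0.000416). Their part in the change of the enzymes was not tested. The difference in response between these enzymes and the proteases was not tested.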

How the data were processed

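Total RNA (500 ng per pool) was made into directional poly-A libraries and sequenced. The authors ran version 3.10.1 of the nf-core RNA-seq workflow on the BDGP6 genome, allowing up to 500 locations and clipping 12 bases, and deposited raw counts per gene (featureCounts) and per transposable element (TEcount). Counts summed to 24318573 to 30104079 per pool. Groups came from the sample labels. CPM were computed from these totals.

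Tests used edgeR 4.0.16 in R 4.3.3 (TMM scaling, filterByExpr over the 6 groups, quasi-likelihood F test, Benjamini-Hochberg over all features tested, threshold 0.05). One model had schedule and drug as terms, another had 6 group means, and all groups shared 1 estimate of the spread. Chronic DMSO replicate 7 was left out and put back as an alternative. The other alternatives were DESeq2 1.42.0 and its size factors, no filter, the replicate number as a block, limma 3.58.1 after some of the study's steps, and leaving out each pool. The limma fit used the study's log2 scale, cyclic LOESS and noise floor, but not its filter on variation or its ANOVA. The procedure was tested on simulated data, with changes only in features of higher mean count than any member in the 39 pools. That test gives no measure of power for the members. The members and comparison lists were chosen with earlier results of these data known. All members are named, with values by group for the 5 highest in the 39 pools and for any called. Other lists are given by counts and up to 4 genes with the highest mean CPM, plus those said to be picked later.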

Additional observations from a re-analysis of the deposited data

Results flagged for a closer look

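In each group, 6 measures (the summed CPM of the 27 proteases and the CPM of the 5 members with the highest mean) were checked by Dixon's criterion. It looks for a highest or lowest pool far from the rest, and 36 checks were made. For independent, normally distributed values it marks about 5% of groups by chance. The sum contains the 5 members and some members had few reads, so the marks cannot be set against that rate. It marked 10. Chronic DMSO replicate 7, already set apart for this report, stood apart in its group for all 6 measures. Its value was 588 CPM for the sum against 1.14 to 1.64 CPM in the other 6 pools, 6.88 CPM for Jon74E against 0.117 to 0.266 CPM, 54.2 CPM for Jon99Ciii against 0.152 to 0.288 CPM, 71.2 CPM for Jon99Cii against 0.147 to 0.470 CPM, 2.35 CPM for Jon99Ci against 0.0681 to 0.228 CPM, and 2.69 CPM for Jon44E against 0.0411 to 0.147 CPM.

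The other 4 lay in 3 pools. Acute DMSO replicate 5 had a summed protease level of 3.18 CPM, against 1.39 to 1.94 CPM in the other acute DMSO pools. Chronic 2-AAPA replicate 5 had 0.963 CPM of Jon74E, against 0.265 to 0.390 CPM in its group. Chronic mitoQ replicate 2 had 0 reads of Jon99Ci, so 0 CPM, against 0.107 to 0.140 CPM, and 0.151 CPM of Jon44E, against 0 to 0.0376 CPM, both of which are differences of at most 4 reads.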

How the results depend on the processing

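With chronic DMSO replicate 7 put back, the number of members called by edgeR was 2 in chronic DMSO against acute DMSO, 2 in chronic 2-AAPA against chronic DMSO and 2 in chronic mitoQ against chronic DMSO, in place of 0 in each. In the other 7 comparisons, and under DESeq2 size factors, no filter, the replicate block, DESeq2, limma and the added removal of the 2 pools with the most Jon74E reads, no member was called. DESeq2 gave neither tested member an adjusted p in chronic mitoQ against acute mitoQ, and only 1 of the 2 in chronic DMSO against acute DMSO. Leaving out each of the 39 pools in turn gave 0 to 0 members called in all 10 comparisons, and between 869 (without chronic DMSO replicate 6) and 1186 (without acute DMSO replicate 1) features called for schedule. That number was 1060 with all 39, 992 with all 40 pools, 1254 by DESeq2 and 977 by limma.

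With the replicate number as a block, 1012 features were called for schedule and 0 members. The numbers were not taken to pair the pools, since same-numbered pools of different groups correlated at 0.00631 on average (-0.63 to 0.624, 93 pairs, 34 over 0.1) and 7 of 39 pools correlated best with their own number. The log2 ratio of the summed protease level, chronic over acute, was -0.08 with and without chronic DMSO replicate 7, -0.10 with DESeq2 size factors and -0.18 with means over pools. Depth limits these results, since 25 of the 27 members were filtered out as too low.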
